A study of Homo sapiens with 4 samples.

Results

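Autophagy genes were taken as all table rows named ATG plus a number, with an optional letter A to D or the suffix L1 or L2, and 19 further genes of the same machinery listed by name. The rule found 37 genes among the 57014 named rows of the count table. All 37 were detected and tested, and each is annotated as protein-coding. The rule uses names and no measured value.

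The libraries came from 22Rv1, a human prostate cancer cell line grown with 10% fetal bovine serum. The control group has 2 libraries of cells labelled wild type, with sgGFP, a guide against a gene that human cells lack, in the library names. The CD276 knockout group has 2 libraries with sgCD276 in their names. CD276 encodes B7-H3, a B7 family checkpoint protein on the cell surface. No label names a treatment, a clone or a time, and no label says whether a group is 1 clone or a pool of edited cells. The series concerns DNA methylation and B7-H3 as joint targets in prostate cancer, and the comparison here asks how autophagy transcripts differ once CD276 is knocked out. The design calls the replicates biological without saying that they are separate cultures. The p-values therefore reflect the spread among these libraries, which may be technical.

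Macroautophagy encloses part of the cytoplasm in a double membrane, the autophagosome, and delivers it to lysosomes for breakdown. The ULK kinase complex starts the process, a class III PI3-kinase complex marks the membrane with the lipid PI3P, and the ATG9 and ATG2 proteins supply lipid to it. A pair of ubiquitin-like conjugation systems then attaches ATG8 proteins, the LC3 and GABARAP families, to the growing membrane, where cargo receptors dock. Much of the control of autophagy lies in phosphorylation and protein turnover, which transcript counts do not measure.

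The deposited counts summed to 20079050 to 25802417 per library, so before TMM scaling 1 CPM (1 count per 1e+06) stood for 20.1 to 25.8 counts. The knockout libraries differed from each other more (r = 0.979 of log2 CPM across genes) than the controls did (0.99), and pairs across the groups had r of 0.953 to 0.962. Mitochondrially encoded transcripts took 5.84% and 6.15% of control counts and 1.46% and 1.78% of knockout counts. MALAT1, a nuclear long non-coding RNA, took 0.255% and 0.218% of control counts against 0.0423% and 0.0571% of knockout counts (log2 fold change -2.35 ± 0.24, edgeR adjusted p = 0.00234), and the part of either difference in the results was not tested. The autophagy genes took 0.187% and 0.189% of control counts and 0.220% and 0.217% of knockout counts. All 10 luminal prostate markers were present at 618 counts or more in each library, while the T cell marker CD3E and the endothelial markers CDH5 and PECAM1 were at 0 throughout and basal prostate markers had at most 5 counts. The fibroblast markers summed to 59.9 and 54.0 normalized CPM in the controls against 33.7 and 45.7 in the knockouts, with COL1A1 lower, LUM higher and PDGFRB at no more than 4 counts; their part in the results was not tested.

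CD276 itself had 1058 and 1054 counts in control replicates 1 and 3 and 621 and 679 in knockout replicates 1 and 3. Its level fell from 50.9 ± 4.98 to 24.9 ± 1.84 normalized CPM (mean ± SD, n = 2 libraries per group). The log2 fold change was -1.03 ± 0.16 (SE), with an adjusted p of 0.00561 by edgeR's quasi-likelihood test with Benjamini-Hochberg adjustment over all genes tested. Without control replicate 3 it was -0.92 and missed the threshold (edgeR adjusted p = 0.0812, against a range of 2.28e-16 to 0.0812 over all alternatives). Gene-level counts cannot show the edit itself.

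Autophagy genes moved in both directions. At an edgeR adjusted p under 0.05, 7 of the 37 were higher in the knockout and 5 were lower, while 25 did not pass the test. The higher genes were SQSTM1, ATG13, GABARAPL2, ATG4C, BECN1, ATG5 and NBR1. The lower genes were ATG16L2, ATG2B, ATG9B, ATG4B and ULK1. Of the 37 genes, 32.4% were thus called, 18.9% higher and 13.5% lower. Among all 18043 genes tested, 22.8% were called, 9.87% higher and 12.9% lower. Among nuclear protein-coding genes 23.4% were called, 12.2% higher and 11.2% lower. With library totals in place of TMM scaling, the split of the autophagy genes was 8 higher and 3 lower. Library totals called 22.8% of all genes tested (2340 higher and 1781 lower), and the all-gene median log2 fold change moved from -0.0045 to 0.10.

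**Figure D1:**
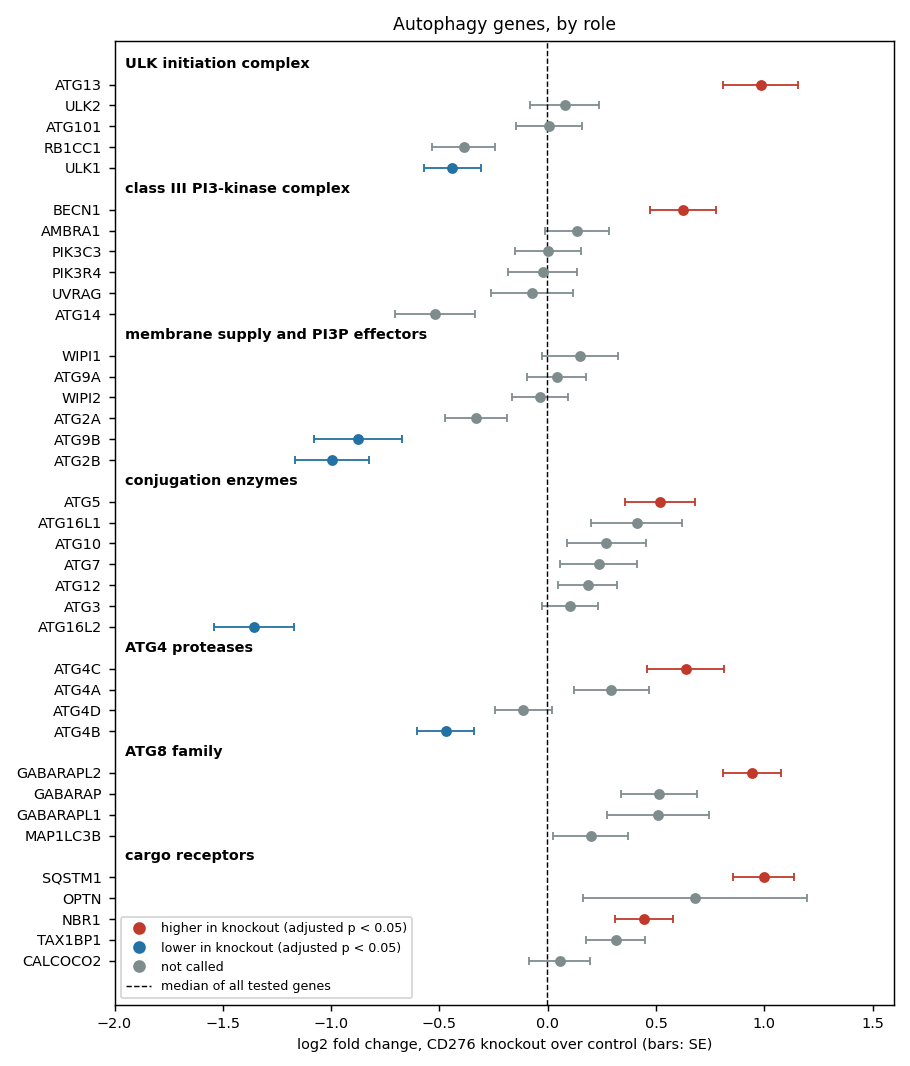
Log2 fold change of knockout over control (x axis, bars are SE) for each of the 37 autophagy genes, grouped by role, with called genes in colour and the median of all tested genes as a dashed line. Values run from -1.36 for ATG16L2 to 1.00 for SQSTM1, and each of the ATG8 genes and cargo receptors lies to the right of 0.

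The median log2 fold change of the 37 genes was 0.14, beside -0.0045 for all genes tested and 0.06 for nuclear protein-coding genes. It was positive for 25 genes and negative for 12. In 17 genes (45.9%) both knockout libraries lay above both controls, beside 31.8% of all genes tested. In 9 genes (24.3%) both lay below, beside 34.1% of all genes. In the other 11 the groups overlapped. The summed level of the 37 genes was 1944 and 1962 normalized CPM in the controls against 2048 and 2160 in the knockouts, a ratio of means of 1.08. ATG16L2 was the only called gene of the 37 that changed by 2-fold or more, beside 1647 of all 18043 genes tested. ATG2B, SQSTM1 and ATG13 lay just under that cut, at 1.99-fold, 1.99-fold and 1.98-fold. In bulk RNA, fewer cells that express a gene and less RNA per cell cannot be told apart.

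The calls rested on both controls. Without control replicate 1, ATG16L2 alone was still called (0 higher, 1 lower), and without control replicate 3, ATG16L2 and SQSTM1 were (1 higher, 1 lower). Over all genes tested, these fits called 1.65% and 3.15%. Without knockout replicate 1 the counts were 15 higher and 7 lower, and without knockout replicate 3 they were 11 higher and 7 lower, with all 12 calls kept in each and 45.7% and 48.3% of all genes called. A group left with 1 library takes its spread from the other group. In the 11 alternatives that kept all 4 libraries and the threshold of 0.05 against no change, 8 of the 12 calls held throughout: SQSTM1, ATG13, GABARAPL2, BECN1 and ATG4C higher, and ATG16L2, ATG2B and ATG9B lower. At an adjusted p under 0.01, ATG4C, BECN1 and ATG9B of these were not called (3 higher and 2 lower left of the 37). In a test against a fold change of 1.2, ATG4C and BECN1 were not (3 higher and 3 lower left). Over all genes tested, 5.74% and 14% were called in these settings.

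**Figure D2:**
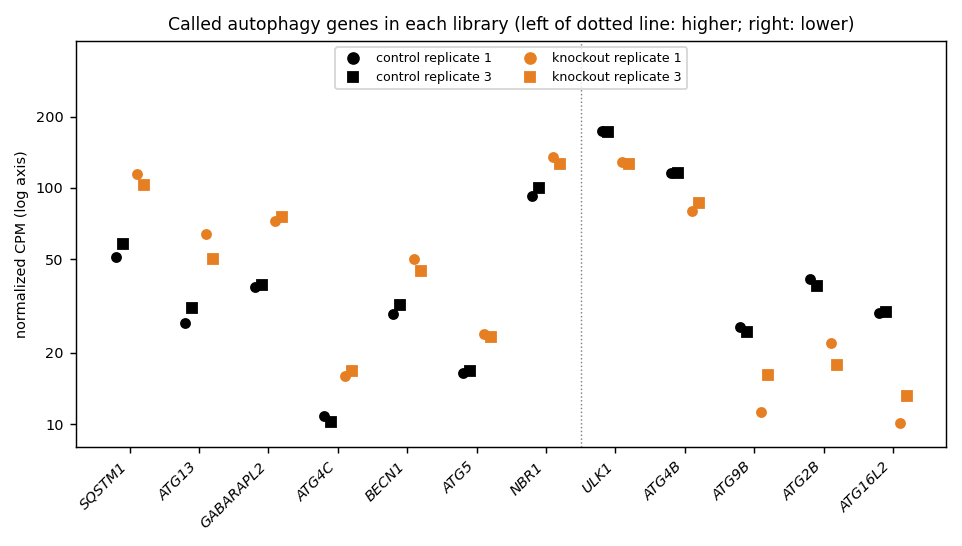
Normalized CPM (log axis) of the 12 called autophagy genes in each of the 4 libraries, with controls in black, knockouts in orange, circles for replicate 1 and squares for replicate 3. The 7 genes left of the dotted line have both knockouts above both controls, and the 5 to its right have both below.

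Promoter sequence is shown for 4 genes because the series concerns DNA methylation and because the motifs of stress and nutrient-responsive factors that act on autophagy genes can be looked for there. GABARAPL2 and ATG16L2 represent the higher and the lower genes, and ATG9B and ATG3 hold motif matches. Each runs from 250 bases before the RefSeq start site to 30 after it, 5′ to 3′ on the strand of the gene, from RefSeq on GRCh38.p14. Capitals mark a motif match.
GABARAPL2 (chr16:75566129-75566408, plus strand): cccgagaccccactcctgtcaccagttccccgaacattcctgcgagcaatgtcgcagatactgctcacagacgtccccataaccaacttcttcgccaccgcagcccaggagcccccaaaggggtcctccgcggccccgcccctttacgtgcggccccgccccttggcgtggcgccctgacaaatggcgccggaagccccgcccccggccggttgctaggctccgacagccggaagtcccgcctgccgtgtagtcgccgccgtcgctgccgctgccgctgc
ATG16L2 (chr11:72814161-72814440, plus strand): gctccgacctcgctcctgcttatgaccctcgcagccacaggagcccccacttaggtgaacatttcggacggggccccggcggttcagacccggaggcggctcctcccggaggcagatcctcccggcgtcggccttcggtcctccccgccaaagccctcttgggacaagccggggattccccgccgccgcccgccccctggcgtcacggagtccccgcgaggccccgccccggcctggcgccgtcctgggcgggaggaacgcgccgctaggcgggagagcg
ATG9B (chr7:151024470-151024749, minus strand): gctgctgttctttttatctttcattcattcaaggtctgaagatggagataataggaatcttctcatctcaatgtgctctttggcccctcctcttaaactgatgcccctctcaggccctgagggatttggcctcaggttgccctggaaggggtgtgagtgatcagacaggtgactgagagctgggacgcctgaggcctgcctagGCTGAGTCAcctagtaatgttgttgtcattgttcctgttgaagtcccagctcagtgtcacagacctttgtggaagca
ATG3 (chr3:112561933-112562212, minus strand): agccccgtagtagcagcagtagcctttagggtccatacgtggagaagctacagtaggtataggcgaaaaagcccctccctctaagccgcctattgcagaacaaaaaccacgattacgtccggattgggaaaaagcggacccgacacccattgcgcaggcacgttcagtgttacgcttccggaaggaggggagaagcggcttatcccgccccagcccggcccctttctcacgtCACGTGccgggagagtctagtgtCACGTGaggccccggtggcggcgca

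The GABARAPL2 and ATG16L2 stretches are GC-rich, at 69.6% and 74.3% G or C with 30 and 34 CpG sites. The ATG9B stretch is at 50% with 1 CpG site, and that of ATG3 at 59.3% with 23. No methylation was measured in these libraries. RefSeq windows of 300 bases, 250 before to 50 after the start, were at hand for 34 of the 37 genes, all but ATG4D, RB1CC1 and UVRAG. In 28 of them a coding transcript annotated in GENCODE 29 starts inside the window, and of the 12 called genes ATG5, BECN1, NBR1 and ATG2B have none there.

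Both strands of the windows were searched for 3 motifs. The E-box CACGTG, which the MiT/TFE factors bind, was in 2 of the 34 windows, those of ATG14 and ATG3, beside 7.43% of 27305 promoters of the same length. In ATG3 it occurs at 2 places. TGACNNNGC, the core of the antioxidant response element bound by NRF2, was in 4, those of ATG101, ATG9B, CALCOCO2 and MAP1LC3B, beside 13.6% of all promoters. GTAAACA, a FOXO motif, was in 1, that of CALCOCO2, beside 3.41%. None of the 3 was in the windows of the 7 higher genes, and among the 5 lower genes the window of ATG9B held the NRF2 core. A match is a description of the letters, and no match says only that they are not in this window.

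The ULK complex held one strong rise and one smaller fall. Of its 5 genes, 1 was higher and 1 lower (40% called, beside 22.8% of all genes tested), with a median log2 fold change of 0.01. ATG13, the adaptor that holds the complex together, had 26.9 and 30.9 normalized CPM in control replicates 1 and 3 and 64.0 and 50.1 in knockout replicates 1 and 3. It rose from 28.9 ± 2.87 to 57.1 ± 9.84 (log2 fold change 0.98 ± 0.17, edgeR adjusted p = 0.00789). ATG13 (chr11, 46617527 to 46674818, plus strand, GRCh38) has 4.70% of its exonic bases in common with HARBI1 on the opposite strand.

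ULK1, the kinase of the complex and a target of both mTORC1 and AMPK, had 174.2 and 172.7 normalized CPM in the controls against 128.8 and 126.8 in the knockouts. It fell from 173.4 ± 1.06 to 127.8 ± 1.41 (log2 fold change -0.44 ± 0.13, edgeR adjusted p = 0.0431). The replicates of each group lay close together and the groups did not overlap. The call was lost in 8 of 15 alternatives, among them RLE scaling, library totals, no filter, DESeq2, and GC and length offsets. Log2 fold changes ran from -0.48 to -0.33 over all its alternatives. ULK1 (chr12, 131894651 to 131923167, plus strand) shares no annotated exon with another gene. The ratio of ULK1 counts to those of its paralog ULK2 within a library was 5.66 and 5.81 in the controls against 3.72 and 4.33 in the knockouts.

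The other genes of the ULK complex did not pass the test. RB1CC1, the scaffold also called FIP200, was at 56.8 and 50.6 normalized CPM in control cells against 39.5 and 42.6 in the knockouts (-0.39 ± 0.14, edgeR adjusted p = 0.0841). ATG101, which stabilises ATG13, was at 65.1 and 76.6 against 65.6 and 76.5, so that the replicates with the same number, rather than the groups, lay together. ULK2 had a log2 fold change of 0.08 ± 0.16. The summed level of the complex was 353.8 and 360.5 in the controls against 332.5 and 325.3 in the knockouts, a ratio of 0.921.

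Of the 6 genes of the class III PI3-kinase complex and its regulators, 1 was higher, none was lower, and the median log2 fold change was -0.01. The share called was 16.7%, beside 22.8% of all genes tested. BECN1, the scaffold that BCL2 proteins bind and inhibit, had 29.2 and 32.0 normalized CPM in the controls against 49.8 and 44.5 in the knockouts. It rose from 30.6 ± 1.99 to 47.2 ± 3.71 (0.62 ± 0.15, edgeR adjusted p = 0.0218). BECN1 (chr17, 42810134 to 42833350, minus strand) shares 17.1% of its exonic bases with CNTD1 and PSME3 on the opposite strand. PSME3 was itself higher (log2 fold change 0.83 ± 0.16) and CNTD1 was at no more than 42 counts. Whether counting used strand is not given here, so the part that PSME3 reads have in the BECN1 count was not tested.

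The other 5 genes of this group did not pass the test. PIK3C3, the lipid kinase VPS34, was at 26.2 and 25.0 normalized CPM in control cells against 25.1 and 26.1 in the knockouts, with a log2 fold change of 0.00 ± 0.15. PIK3R4, its regulatory subunit VPS15, had -0.02 ± 0.16, and UVRAG, which takes the place of ATG14 in the endosomal form of the complex, -0.07 ± 0.19. ATG14, which directs the complex to sites of autophagosome formation, was at 18.0 and 17.8 in the controls against 13.8 and 11.2 in the knockouts (-0.52 ± 0.18, edgeR adjusted p = 0.0740). AMBRA1, a regulator of BECN1, had 0.14 ± 0.15. Taking both initiation complexes, 2 of 11 genes were higher (18.2%) and 1 lower (9.09%), with a median of 0.00. The shares over all genes tested were 9.87% and 12.9%.

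Lipid transfer and scramblase genes fell in part, with one paralog of each pair called. Of the 6 genes for membrane supply and PI3P effectors, none was higher and 2 were lower, and the median log2 fold change was -0.18. The share lower was 33.3%, beside 12.9% of all genes tested. ATG2B, a lipid transfer protein that links the growing membrane to the endoplasmic reticulum, had 41.3 and 38.5 normalized CPM in the controls against 22.1 and 17.9 in the knockouts. It fell from 39.9 ± 2.00 to 20.0 ± 3.02 (-0.996 ± 0.17, edgeR adjusted p = 0.00728). Its paralog ATG2A was at 56.8 and 60.2 against 43.4 and 49.7 (-0.33 ± 0.14, edgeR adjusted p = 0.126), and did not pass. The count ratio of ATG2B to ATG2A was 0.727 and 0.639 in the controls against 0.51 and 0.36 in the knockouts. ATG2B lies on chr14, 96279202 to 96363870, minus strand.

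ATG9B, one of the ATG9 membrane proteins that scramble lipids, had 25.7 and 24.5 normalized CPM in the controls against 11.3 and 16.1 in the knockouts. It fell from 25.1 ± 0.80 to 13.7 ± 3.40 (-0.88 ± 0.20, edgeR adjusted p = 0.0190), the groups not overlapping although the knockouts differed by 1.43-fold. ATG9B (chr7, 151012209 to 151024499, minus strand) shares 12.3% of its exonic bases with NOS3 on the opposite strand, and NOS3 moved the other way, to higher levels (0.49 ± 0.15, edgeR adjusted p = 0.0464). ATG9A, the broadly expressed paralog, was at 170.9 and 170.5 in the controls against 167.3 and 183.9 in the knockouts (0.04 ± 0.14), and 38.8% of its exonic bases are shared with a same-strand gene. The count ratio of ATG9B to ATG9A was 0.15 and 0.144 in the controls against 0.0674 and 0.0875 in the knockouts. WIPI1 and WIPI2, which bind PI3P, had log2 fold changes of 0.15 ± 0.17 and -0.03 ± 0.13.

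Most conjugation enzymes had small positive differences, and a single one fell steeply. Of 7 genes, 1 was higher and 1 lower (28.6% called, beside 22.8% of all genes tested), with a median log2 fold change of 0.24. In 6 of them both knockouts lay above both controls and in ATG16L2 both lay below, so no gene of the group overlapped. Of all genes tested, 31.8% lay above and 34.1% below in the same way. ATG5, the core of the ATG12-ATG5-ATG16L complex, had 16.5 and 16.7 normalized CPM in the controls against 24.2 and 23.4 in the knockouts. It rose from 16.6 ± 0.14 to 23.8 ± 0.53 (0.52 ± 0.16, edgeR adjusted p = 0.0490). The call was lost in 7 of 15 alternatives, among them upper quartile scaling, the filter at 50 counts, voom and a fit to protein-coding genes. ATG5 (chr6, 106045423 to 106325791, minus strand) shares no annotated exon.

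ATG16L2 showed the largest change of the 37 genes. ATG16L2 (chr11, 72814308 to 72843674, plus strand) encodes a relative of ATG16L1, the subunit that places the conjugation complex on the membrane. It had 29.6 and 29.8 normalized CPM in the controls against 10.1 and 13.1 in the knockouts. Its level fell from 29.7 ± 0.17 to 11.6 ± 2.13, a 2.56-fold lower mean (log2 fold change -1.36 ± 0.19, edgeR adjusted p = 0.00406). It was called under each of its 15 alternatives, with log2 fold changes from -1.49 to -1.17 and adjusted p from 5.23e-21 to 0.0327. It shares 7.89% of its exonic bases with FCHSD2 on the opposite strand, which was at 253 counts at most with a log2 fold change of 0.08.

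ATG16L1 was at 14.1 and 14.3 normalized CPM in control cells against 22.3 and 15.4 in the knockouts (0.41 ± 0.21, edgeR adjusted p = 0.188). The shift was thus mostly in knockout replicate 1. Within a library, ATG16L2 counts were 2.1 and 2.08 times those of ATG16L1 in the controls against 0.452 and 0.85 times in the knockouts. With 2 libraries a group, an exact two-sided permutation test of such a ratio cannot go below 0.333, so the ratios are given without a test.

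The remaining conjugation enzymes did not pass the test. ATG7, the E1-like enzyme that activates both ATG12 and the ATG8 proteins, had a log2 fold change of 0.24 ± 0.18. ATG10, the E2-like enzyme for ATG12, was at 26 and 25.7 normalized CPM in control cells against 26.6 and 35.8 in the knockouts (0.27 ± 0.18). ATG12, the ubiquitin-like partner of ATG5, had 0.18 ± 0.14. ATG3, the E2-like enzyme for ATG8 proteins, whose promoter is printed above with its 2 E-boxes, was at 71.4 and 72.4 against 76.2 and 78.4 (0.10 ± 0.13, edgeR adjusted p = 0.594).

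The ATG4 cysteine proteases, which trim ATG8 precursors and release ATG8 proteins from lipid, went in opposite directions. ATG4C had 10.8 and 10.2 normalized CPM in the controls against 16.0 and 16.8 in the knockouts. It rose from 10.5 ± 0.43 to 16.4 ± 0.61 (0.64 ± 0.18, edgeR adjusted p = 0.0352). ATG4B, the most active of the family on most ATG8 proteins, had 116 and 115.2 in the controls against 80.2 and 86.6 in the knockouts. It fell from 115.6 ± 0.56 to 83.4 ± 4.55 (-0.47 ± 0.13, edgeR adjusted p = 0.0352). The call was lost in 4 of 15 alternatives, among them library totals and GC and length offsets.

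The count ratio of ATG4C to ATG4B was 0.0934 and 0.0887 in the controls against 0.199 and 0.194 in the knockouts, and the replicates of each group lay close together. ATG4A had a log2 fold change of 0.29 ± 0.17 and ATG4D of -0.11 ± 0.13, neither called. Summed over the 4 proteases, the level was 224 and 226.7 in the controls against 189.9 and 202.5 in the knockouts, a ratio of 0.87. ATG4C lies on chr1, 62784135 to 62865513, plus strand, and ATG4B on chr2, 241637213 to 241673857, plus strand.

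Each of the 4 ATG8 genes of the rule had a positive log2 fold change, with a median of 0.51, and 1 passed the test. That is 25% called, beside 22.8% of all genes tested. GABARAPL2, also called GATE-16, had 38.0 and 38.7 normalized CPM in the controls against 72.5 and 75.0 in the knockouts. It rose from 38.4 ± 0.50 to 73.8 ± 1.70 (0.94 ± 0.13, edgeR adjusted p = 0.00472), with both knockouts at nearly the same level. GABARAPL2 (chr16, 75566351 to 75577881, plus strand) shares no annotated exon with another gene, and its GC-rich promoter is printed above.

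The other ATG8 genes did not pass the test and had their highest values in knockout replicate 3. GABARAP had control levels of 94.3 and 98.1 normalized CPM, and reached 114.2 in knockout replicate 1 but 160.5 in replicate 3 (0.51 ± 0.18, edgeR adjusted p = 0.0662). It was called under 7 of 15 alternatives, among them DESeq2, library totals and GC and length offsets, and its adjusted p ran from 5.59e-13 to 0.437. Same-strand genes overlap 30.5% of its exonic bases and opposite-strand genes 25.2%. GABARAPL1 was at 15.8 in each control, 17.1 in knockout replicate 1 and 27.9 in replicate 3 (0.51 ± 0.24, edgeR adjusted p = 0.148). MAP1LC3B, the LC3 gene most used to follow autophagosomes, was at 67.5 and 59.6 in the controls against 61.8 and 84.0 in the knockouts (0.20 ± 0.17, edgeR adjusted p = 0.436), so that its groups overlapped.

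Their summed level was 215.7 and 212.3 normalized CPM in the controls against 265.7 and 347.3 in the knockouts, a ratio of 1.43. The median log2 ratio of the 4 genes to the control mean was 0.18 in knockout replicate 1 and 0.78 in replicate 3. The count ratio of GABARAPL2 to MAP1LC3B was 0.563 and 0.649 in the controls against 1.17 and 0.892 in the knockouts. No ATG8 gene outside the rule was called. MAP1LC3A had 37.9 and 37.4 in the controls against 19.8 and 31.8 in the knockouts (-0.54 ± 0.22, edgeR adjusted p = 0.104), MAP1LC3B2, a near-identical copy of MAP1LC3B, had at most 9 counts, and MAP1LC3C had 0.

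**Figure D3:**
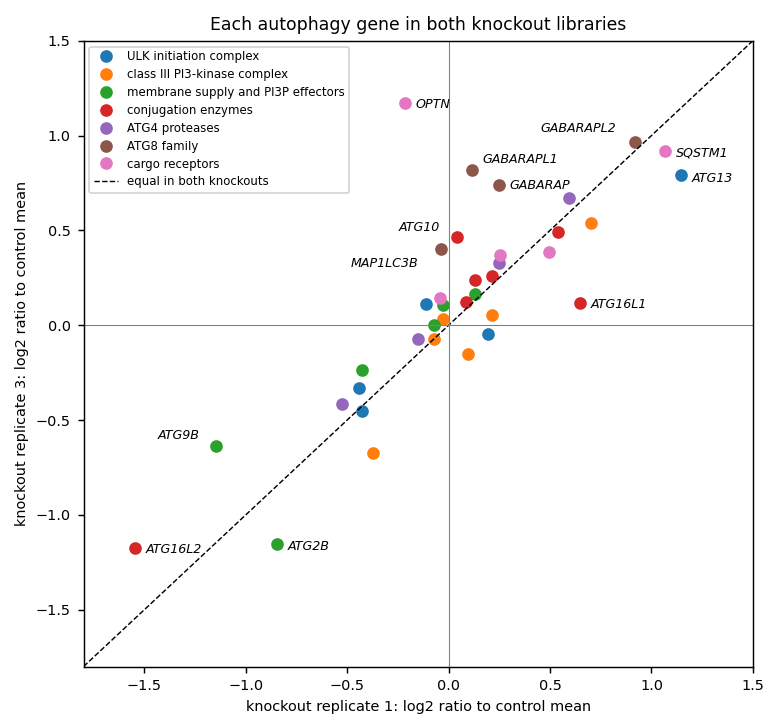
Log2 ratio of each autophagy gene to the control mean in knockout replicate 1 (x axis) and knockout replicate 3 (y axis), coloured by role, with equality as a dashed line. SQSTM1, ATG13, GABARAPL2, ATG2B, ATG9B and ATG16L2 lie far from 0 in both, while OPTN, GABARAPL1 and GABARAP lie above the line and ATG16L1 below it.

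Cargo receptors, which tie ubiquitinated or damaged cargo to ATG8 proteins, had a median log2 fold change of 0.44. Of the 5, 2 were higher (40%) and none lower, beside 9.87% higher and 12.9% lower among all genes tested. SQSTM1 encodes p62, which gathers ubiquitinated protein and is itself degraded by autophagy. It had 51.2 and 57.9 normalized CPM in the controls against 114.4 and 103 in the knockouts. Its level rose from 54.5 ± 4.73 to 108.7 ± 8.07 (1.00 ± 0.14, edgeR adjusted p = 0.00472).

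SQSTM1 (chr5, 179806398 to 179838078, plus strand) shares 22.0% of its exonic bases with MGAT4B and MRNIP on the opposite strand. MGAT4B had nearly equal means (119.0 ± 3.37 and 119.4 ± 7.97 normalized CPM, log2 fold change 0.0046), and MRNIP was lower (-0.92 ± 0.16, edgeR adjusted p = 0.00775). Whether counting used strand is not given, and the part that reads of these neighbours have in the SQSTM1 count was not tested. The SQSTM1 call was lost in 1 of 15 alternatives, without control replicate 1, where the log2 fold change was 0.91 (adjusted p = 0.112, the highest in a range from 2.79e-28).

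NBR1, a receptor related to p62, had 92.2 and 100 normalized CPM in the controls against 135.6 and 125.7 in the knockouts. It rose from 96.1 ± 5.51 to 130.7 ± 6.95 (0.44 ± 0.14, edgeR adjusted p = 0.0466). The call was lost in 7 of 15 alternatives, among them upper quartile scaling, the filter at 50 counts, a fit to protein-coding genes and GC and length offsets. The count ratio of SQSTM1 to NBR1 was 0.555 and 0.579 in the controls against 0.844 and 0.819 in the knockouts. NBR1 lies on chr17, 43170481 to 43211689, plus strand.

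TAX1BP1, a receptor for ubiquitinated protein aggregates, was at 142.9 and 143.6 normalized CPM in control cells against 170.9 and 184.9 in the knockouts (0.31 ± 0.13, edgeR adjusted p = 0.122), with no overlap of the groups. CALCOCO2, or NDP52, a receptor for bacteria and damaged mitochondria, was at 59.0 and 56.7 against 56.2 and 64.0 (0.05 ± 0.14). OPTN, or optineurin, a receptor in mitophagy, had only 25 and 32 counts in the controls against 31 and 84 in the knockouts (0.68 ± 0.52, edgeR adjusted p = 0.365). Its difference came from knockout replicate 3. The 5 receptors summed to 346.5 and 359.8 normalized CPM in the controls against 478.3 and 480.9 in the knockouts, a ratio of 1.36.

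Per kilobase of merged exons, GABARAP had the highest control level of the 37 genes, at 41.6 and 43.3 normalized CPM per kb, and 50.4 and 70.8 in the knockouts. ATG4D, ATG9A, ULK1 and ATG101 followed with control means of 36.7, 36.1, 22.8 and 22.1. The 2 control values of ATG101 lie on either side of those of ULK1, so these neighbours did not differ beyond their spread. At the other end were UVRAG at 1.98, ATG7 at 1.83, PIK3C3 at 1.68 and OPTN at 0.270. GABARAPL2 moved from rank 8 in the controls (12.6) to rank 4 in the knockouts (24.3), and SQSTM1 from rank 14 (7.12) to rank 9 (14.2). ATG16L2 moved from rank 28 (3.44) to rank 36 (1.35). Lengths count all annotated exons of a gene, so the level of a gene with long rarely used exons is understated.

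**Figure D4:**
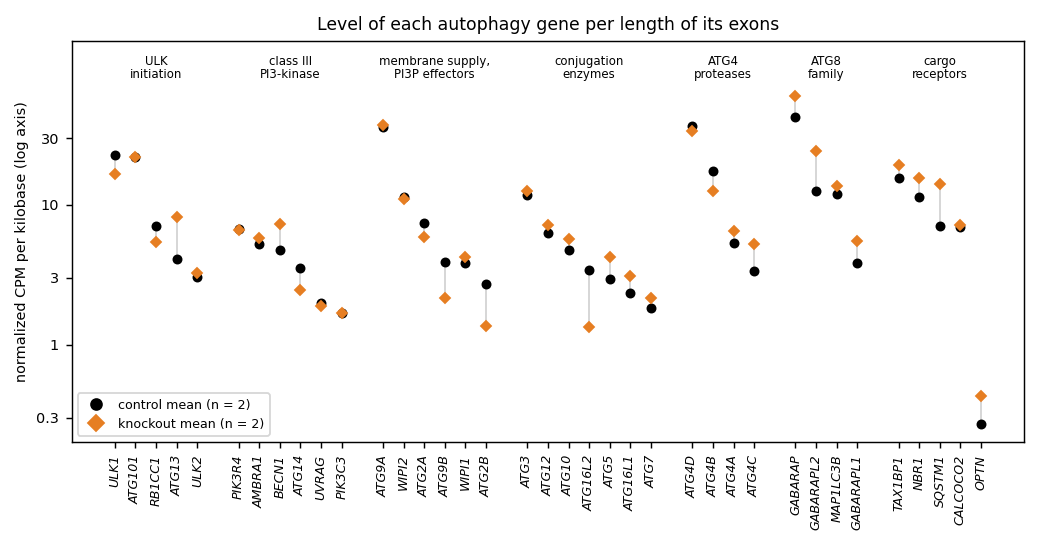
Mean normalized CPM per kilobase of merged exons (log axis) for each autophagy gene, by role, in controls (black circles, n = 2) and knockouts (orange diamonds, n = 2). GABARAP is highest in both groups and OPTN lowest, and the longest joining lines belong to ATG16L2, ATG13, ATG2B, SQSTM1 and GABARAPL2.

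The spread between replicates was wider in the knockouts. Knockout replicate 3 over knockout replicate 1 ran from 0.691 (ATG16L1) to 2.75 (OPTN), and 7 genes were more than 1.3-fold apart, among them GABARAPL1, ATG9B, GABARAP and MAP1LC3B. Control replicate 3 over control replicate 1 ran from 0.826 to 1.48, and OPTN alone was more than 1.3-fold apart. The median of the larger over the smaller replicate was 1.11 in the knockouts and 1.05 in the controls.

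The called genes had different medians and overlapping ranges of base composition. GC content was taken from the longest annotated transcript of each gene. Its median was 44.9% in the 7 higher genes (34.8% to 58.0%) and 60.9% in the 5 lower genes (44.2% to 64.2%). It was 47.8% in the 25 others and 48.7% in all tested genes. ULK1 and ATG4B are at 64.2% and 60.9% and ATG4C at 34.8%. Across the 37 genes, GC content and log2 fold change had r = -0.351 (-0.19 over tested protein-coding genes and -0.0673 over all tested genes, which share the same libraries). With offsets for GC content and length, 6 of the higher and 3 of the lower calls were kept. ATG4B, NBR1 and ULK1 were lost, and ATG14, GABARAP and RB1CC1 were gained. The fit with offsets called 25.9% of the genes it tested.

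Other genes of the pathway, from lists of general knowledge, had more higher than lower calls in each list, but the share called was above that of all genes in only some of them. Of 33 tested genes among 37 other autophagy genes, 9 were higher and 1 lower (30.3% called, 27.3% higher), with a median log2 fold change of 0.23. The shares were 22.8% called and 9.87% higher over all genes tested, and 23.4% and 12.2% over nuclear protein-coding genes. NCOA4, the receptor that takes ferritin to autophagosomes, rose from 60.7 ± 2.19 to 113.7 ± 17.5 normalized CPM (0.91 ± 0.15, edgeR adjusted p = 0.00699). BCL2L13, a mitophagy receptor, rose from 34.0 ± 0.06 to 60.9 ± 7.22 (0.84 ± 0.15, edgeR adjusted p = 0.0083). NRBF2, a partner of ATG14 in the class III PI3-kinase complex, rose from 6.41 ± 1.02 to 14.2 ± 1.64 (1.15 ± 0.22, edgeR adjusted p = 0.00967).

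Among 20 tested of 21 genes for fusion of autophagosomes with lysosomes, 5 were higher and 1 lower, with a median of 0.23. The share called was 30% (25% higher and 5% lower), beside 22.8% of all genes tested (9.87% higher and 12.9% lower). LAMP2, an abundant lysosomal membrane protein, rose from 25.3 ± 1.35 to 57.5 ± 5.63 normalized CPM (1.19 ± 0.15, edgeR adjusted p = 0.00375). RAB7A, the GTPase of late endosomes and lysosomes, rose from 180.6 ± 13.3 to 331.2 ± 2.95 (0.87 ± 0.14, edgeR adjusted p = 0.00674). TMEM175, a lysosomal ion channel, fell from 49.3 ± 4.41 to 24.9 ± 1.07 (-0.99 ± 0.15, edgeR adjusted p = 0.00588).

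In the mTORC1 and AMPK pathways, which restrain and promote autophagy, 6 of 39 genes were higher and 1 lower, with a median of 0.14. The share called was 17.9%, below the 22.8% of all genes. By direction it was 15.4% higher and 2.56% lower, beside 9.87% and 12.9% of all genes tested. RRAGD, a Rag GTPase that brings mTORC1 to lysosomes, rose from 25.7 ± 3.66 to 48.4 ± 8.57 normalized CPM (0.92 ± 0.18, edgeR adjusted p = 0.0118). CAB39, a partner of the kinase LKB1, rose from 22.2 ± 1.5 to 37.8 ± 5.92 (0.77 ± 0.17, edgeR adjusted p = 0.0171), and PRKAB2, an AMPK beta subunit, from 14.3 ± 2.43 to 25.1 ± 3.86 (0.81 ± 0.20, edgeR adjusted p = 0.022).

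Of 9 tested among 10 transcription factors of the MiT/TFE and FOXO groups and their counterparts, 1 was higher and none lower, with a median of 0.20. The share called was 11.1%, below the 22.8% of all genes, of which 9.87% were higher. FOXO3, an activator of autophagy genes, rose from 22.7 ± 0.99 to 37.7 ± 4.86 normalized CPM (0.73 ± 0.16, edgeR adjusted p = 0.0168). ZKSCAN3 and FOXK2, repressors of autophagy genes, had log2 fold changes of 0.25 ± 0.19 and 0.24 ± 0.15 and did not pass.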

How the data were processed

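The values are raw gene counts that the authors deposited in 1 table for the 4 poly(A)-selected libraries, read as paired ends of 150 bp. The submitters' processing notes name featureCounts, Subread 1.5.2, STAR 2.5.2b, Trimmomatic 0.36 and GRCh38. The strand setting, the annotation release and the handling of multi-mapping reads are not given in the sources. Of 57500 rows, 486 without a gene name (0.0191% to 0.029% of counts) were left out. Groups came from the labels.

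Counts were filtered with filterByExpr, scaled by TMM (factors 0.962 to 1.07) and compared by the quasi-likelihood test of edgeR 4.0.16 under R 4.3.3 (robust glmQLFit, glmQLFTest, group as the only term), which left 2 residual degrees of freedom. Benjamini-Hochberg adjustment ran over 18043 genes, with a threshold of 0.05. Normalized CPM are TMM-scaled, and the SE is the log2 fold change over the square root of F. The biological coefficient of variation was 0.158. Positions, exons, overlaps and GC came from GENCODE 29 on GRCh38.

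The genes, roles and lists were chosen with earlier results of these data known. Every autophagy gene may be named; called genes, ATG8 genes and receptors get each library's value, and further lists the 3 genes with the smallest p. CD276, paralogs, overlapping neighbours and markers named beside results are additions. Alternatives were RLE, upper quartile and library-total scaling, 2 other filters, DESeq2 1.42.0, limma 3.58.1 voom, robust=FALSE, a replicate block, leaving out each library, protein-coding genes only, GC and length offsets, a stricter threshold (0.01) and testing against 1.2-fold. The scripts were tested on simulated data. With 20.1 to 25.8 counts per CPM before TMM scaling, OPTN is the least precisely measured of the autophagy genes.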

Additional observations from a re-analysis of the deposited data

How the results depend on the processing

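Against 7 higher and 5 lower autophagy genes, the counts were 3 and 2 at an adjusted p under 0.01. They were 3 and 3 in the test against a fold change of 1.2, and 8 and 3 with library totals. Of all genes tested, 5.74%, 14% and 22.8% were called in the same order, beside 22.8% in the main fit. Leaving out 1 library gave 0 to 15 higher and 1 to 7 lower, and a CD276 log2 fold change of -1.13 to -0.92. With the replicate block, 6 were higher and 4 lower, with 5 and 4 of the calls kept and ATG5, NBR1 and ULK1 lost. The block called 26.8% of all genes tested. Same-numbered libraries did not deviate together across genes (r = -0.015). With 2 libraries per group, this cannot show whether the numbers pair the samples. None of the 12 called genes changed sign in any of these alternatives. Of 554 log2 fold changes of single genes under alternatives, 466 kept their sign and call, 39 lost and 24 gained a call, and 25 changed sign.

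Signs changed only in genes near 0 or at low counts. Upper quartile scaling gave ATG101 -0.0216 and PIK3C3 -0.0262, library totals PIK3R4 0.0883, UVRAG 0.0360 and WIPI2 0.0723, and no filter PIK3R4 0.00387. The filter at 50 counts, which drops OPTN, gave ATG101 -0.0327 and PIK3C3 -0.0370, protein-coding genes only gave them -0.0330 and -0.0355, and DESeq2 gave PIK3R4 0.0219 and WIPI2 0.00862. GC and length offsets gave ATG4D 0.203, CALCOCO2 -0.00990, PIK3C3 -0.0381 and ULK2 -0.0434. Leaving out 1 library moved ATG101 from -0.109 to 0.127, PIK3R4 from -0.141 to 0.160, PIK3C3 from -0.0302 to 0.0423, UVRAG from -0.197 to 0.0610, ULK2 from -0.0368 to 0.262, WIPI2 from -0.0508 to 0.0112 and OPTN from -0.15 to 1.25; the cause was not tested.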
